A study of Homo sapiens with 36 samples.

Results

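The 10 transcription factors TAL1, GATA3, RUNX1, RUNX3, MYB, LMO1, LMO2, TCF7, NOTCH1 and BCL11B were followed in Jurkat cells, a human line grown from a T-cell acute lymphoblastic leukaemia (T-ALL). They were chosen by name, as factors of T-cell identity and of T-ALL, with earlier results of these data known. All 10 were found among the 74628 genes of the count table. All 10 also passed the filter on low counts, so each one entered every test. The study asked what activation of RELA, a subunit of the transcription factor NF-kB, does to the transcriptome of these cells.

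All cells carried dCas9-VP64, a Cas9 that does not cut and is fused to an activating domain, and expressed mCherry. They were transduced with a lentivirus for either a single guide RNA against RELA (sgRELA) or a control guide that the labels call non-targeting (sgControl), and were kept in puromycin for 3 days. Cells were harvested 5, 6 or 7 days after transduction, which gave 6 groups of guide and day with 3 biological replicates each. Every RNA sample was turned into 2 libraries by RamDA-seq, a method that reads full-length total RNA with or without a poly(A) tail, from 100 pg of RNA per library. The counts of the 2 libraries were added, which left 18 RNA samples with 18769530 to 29503934 counts each (single libraries 7586205 to 16124473). The labels name 1 guide for RELA and 1 control guide, so an effect of the target gene and an effect of that particular guide sequence cannot be told apart, and cells without a guide were not analysed here. Levels are CPM, the usual library-size-scaled counts, with the library sizes adjusted by trimmed mean of M values (TMM). They measure the share of a gene in the RNA of a culture, so that fewer cells with an RNA and less RNA per cell cannot be told apart.

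TAL1 is a basic helix-loop-helix factor of early blood formation that is silent in most normal T cells and is switched on in a large subgroup of T-ALL. It binds DNA as a partner of the E proteins TCF3 and TCF12, and the LIM-domain proteins LMO1 or LMO2 bridge it to GATA factors. In T-ALL cells TAL1, GATA3, RUNX1 and MYB occupy shared enhancers, including their own, and form an interconnected circuit. NOTCH1 is a cell surface receptor whose cleaved inner part acts in the nucleus, TCF7 and BCL11B direct and hold T-cell commitment, and RUNX3 works with RUNX1 in later T-cell development.

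RELA itself was measured first, as a check of the labels. It stood at 27.3 ± 2.81 CPM with sgControl and 207 ± 13.9 CPM with sgRELA (mean of the 3 days, SD, n = 3 replicate numbers), a log2 fold change of 2.95 ± 0.07 (SE; edgeR adjusted p = 9.39e-17). With sgRELA it stood at 293.5, 200.9 and 127.1 CPM on days 5, 6 and 7, and with sgControl at 33.2, 23.9 and 24.7 CPM (means, n = 3). The log2 fold changes of the days were 3.14, 3.07 and 2.36, and the test of a change of the guide effect with the day did not call RELA (edgeR adjusted p = 0.686), although its level with sgRELA fell by 1.21 on the log2 scale from day 5 to 7 (edgeR adjusted p = 6.43e-08). All 14 markers of T cells examined, among them CD3D, LCK and TRAC, were at 1 CPM or more in each group. Their summed level was 2698 to 3099 CPM on day 5 and 3815 to 3932 CPM on day 7 with sgControl, and 2898 to 3045 CPM on day 5 and 4061 to 4096 CPM on day 7 with sgRELA. Of 5 B-cell markers CD79A and EBF1 were at 1 CPM or more, and the 5 summed to 24.9 to 38.5 CPM with sgControl and 62.6 to 73.4 CPM with sgRELA. The T-cell marker CD28 was called higher with sgRELA on day 6 (0.60 ± 0.11 on the log2 scale, SE; edgeR adjusted p = 0.00657) and over the 3 days (0.31 ± 0.06, 0.0177). CD79A was called higher with sgRELA (log2 fold change over the 3 days 1.498 ± 0.077, SE; edgeR adjusted p = 3.88e-11), while MS4A1 and PAX5 were below 1 CPM on average in every group. Myeloid markers summed to at most 3.49 CPM, erythroid markers to at most 11.8 CPM, with HBB and HBG1 at 0, and epithelial and fibroblast markers to at most 10.9 CPM, with EPCAM and COL1A2 at 0. Of these 3 kinds, the erythroid marker EPOR and the fibroblast marker COL1A1 were at 1 CPM or more on average. Group means of COL1A1 ran from 2.92 CPM (sgRELA, day 7) to 9.14 CPM (sgControl, day 6). A pair of control libraries held the fewest detected genes of the 36, the first library of sgControl day 5 replicate 2 (25398 genes) and the first library of sgControl day 6 replicate 1 (26526 genes). The next lowest, the second library of sgControl day 7 replicate 2, had 26605 genes, close to the 26526, so the choice of 2 libraries is a loose cut. None of the 28 calls of the factors was lost without the pair, and the calls of factors gained without it are given below.

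The start regions of 4 of the factors are printed as examples: RUNX3 differed between the guides, and TAL1, RUNX1 and MYB moved between days. TCF7, BCL11B and NOTCH1 moved between days too, but their start regions are not printed, nor is promoter 2 of TAL1. The sequences are from RefSeq (GRCh38.p14) and end at the base before the annotated start, except that RUNX3 promoter 1 stops where a GENCODE v29 exon of RUNX3 begins. They read 5′ to 3′ in the direction of the gene, and capitals mark matches on either strand to 4 motifs: AGATAA for GATA factors, CAGNTG for E proteins with TAL1, TGTGGT for RUNX factors and CCGGAA for ETS factors. RUNX3 promoter 1 is chr1:24965122-24965260 and promoter 2 chr1:24930277-24930526, TAL1 promoter 1 is chr1:47232336-47232585 and RUNX1 chr21:34888700-34888949, these 4 on the minus strand, and MYB is chr6:135181058-135181307 on the plus strand.
RUNX3 promoter 1: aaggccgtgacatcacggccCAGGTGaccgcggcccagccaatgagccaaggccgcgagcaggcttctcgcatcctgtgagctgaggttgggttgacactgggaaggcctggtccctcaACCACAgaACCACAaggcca
RUNX3 promoter 2: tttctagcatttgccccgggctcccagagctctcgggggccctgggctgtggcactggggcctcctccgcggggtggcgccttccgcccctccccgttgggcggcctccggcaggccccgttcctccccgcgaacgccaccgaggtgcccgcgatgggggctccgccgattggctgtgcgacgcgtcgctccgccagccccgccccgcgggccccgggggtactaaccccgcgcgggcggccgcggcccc
TAL1 promoter 1: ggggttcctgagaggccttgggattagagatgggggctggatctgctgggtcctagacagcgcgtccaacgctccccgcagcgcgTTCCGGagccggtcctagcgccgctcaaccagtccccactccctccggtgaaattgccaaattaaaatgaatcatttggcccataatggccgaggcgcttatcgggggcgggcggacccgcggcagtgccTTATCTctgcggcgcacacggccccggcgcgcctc
RUNX1: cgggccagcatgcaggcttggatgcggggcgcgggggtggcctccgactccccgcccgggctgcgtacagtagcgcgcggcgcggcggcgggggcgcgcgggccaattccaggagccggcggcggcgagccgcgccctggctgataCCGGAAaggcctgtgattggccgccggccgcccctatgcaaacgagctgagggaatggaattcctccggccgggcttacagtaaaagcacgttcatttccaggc
MYB: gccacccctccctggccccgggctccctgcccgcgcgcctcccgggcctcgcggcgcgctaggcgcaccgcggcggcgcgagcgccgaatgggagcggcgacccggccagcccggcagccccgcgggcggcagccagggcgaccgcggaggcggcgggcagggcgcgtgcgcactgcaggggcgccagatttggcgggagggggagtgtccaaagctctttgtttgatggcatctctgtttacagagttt

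The RefSeq table held 17 start regions of 9 factors, all but LMO2, and the 250 bases before each were searched. The RUNX motif was in 3 of the 17, against 3855 of 35116 human start regions of the same length. It stood 2 times in RUNX3 promoter 1, 131 to 126 and 123 to 118 bases before the start, and 3 times in promoter 2 of TAL1. Promoter 3 of GATA3 held it as well, 38 to 33 bases before the start. The GATA motif was in 1 of 17, TAL1 promoter 1 at 35 to 30 bases before the start (9.2% of all). The E-box was in 4 of 17 (42.5% of all) and the ETS motif in 5 of 17 (14.5% of all). The NF-kB consensus was in 0 of 17 (5.2% of all), which says only that its letters are not in these windows. The counts are per gene, so the use of one start region over another was not measured.

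Per kilobase of merged exons, TAL1 was the most abundant of the 10 factors, at 114.0 ± 18.1 CPM per kb (SD over the 18 RNA samples), followed by MYB at 78.0 ± 14.5 and RUNX1 at 71.4 ± 8.57. The T-cell commitment factors TCF7 and BCL11B came next at 43.2 ± 9.12 and 34.1 ± 7.01 CPM per kb. NOTCH1 stood at 12.9 ± 2.48, GATA3 at 10.4 ± 1.41 and RUNX3 at 3.69 ± 1.65 CPM per kb. Both LIM-domain genes were at the edge of detection, LMO1 at 0.253 ± 0.172 and LMO2 at 0.110 ± 0.127 CPM per kb. The ranges over samples did not overlap between RUNX1 and TCF7, BCL11B and NOTCH1, GATA3 and RUNX3, or RUNX3 and LMO1. The other neighbours overlapped: TAL1 was above MYB in 16 of 18 samples, MYB above RUNX1 in 12, TCF7 above BCL11B in 17, NOTCH1 above GATA3 in 17 and LMO1 above LMO2 in 12. The length chosen matters for RUNX1, whose merged exons span 15574 bases and whose longest transcript has 7274 bases. Per kilobase of longest transcript RUNX1 came first at 152.8 CPM, before TAL1 at 130.0 and MYB at 116.7, and the order of the other 7 was the same.

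**Figure D1:**
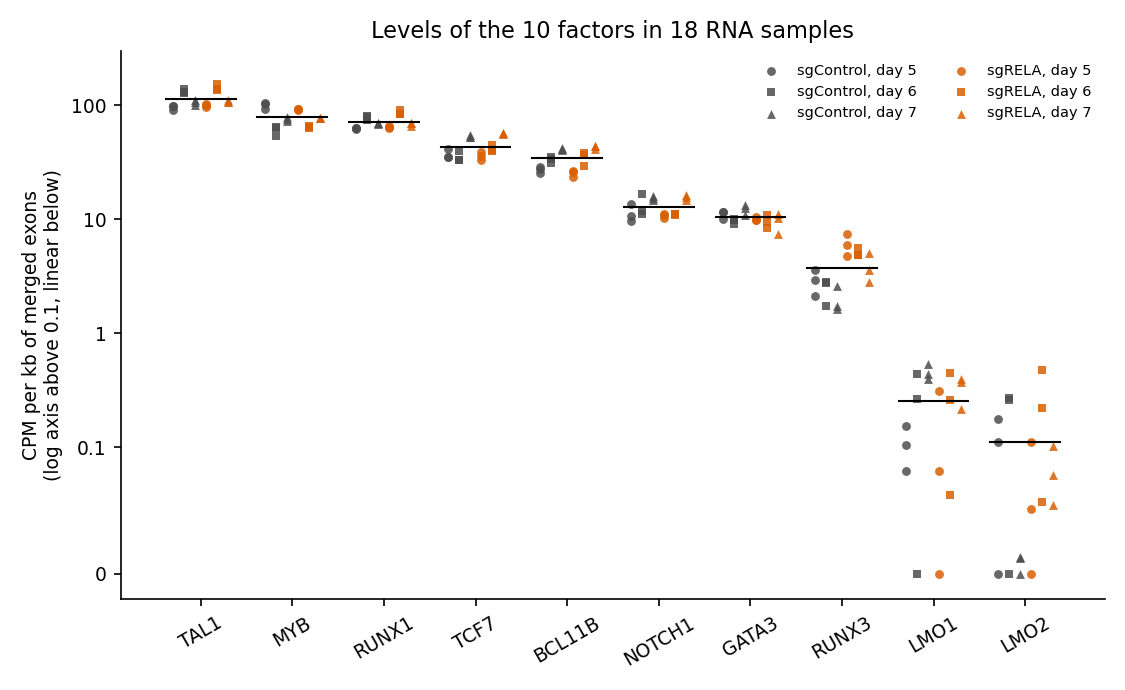
Level of each factor in CPM per kilobase of merged exons on a log axis (linear below 0.1); each point is 1 of 18 RNA samples, colour gives the guide, the symbol the day, and the black line the mean. TAL1, MYB and RUNX1 lie near 100, GATA3 near 10, and LMO1 and LMO2 below 1, with samples at 0.

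LMO1 (ENSG00000166407, chromosome 11, 8224304 to 8268716, minus strand) and LMO2 (ENSG00000135363, chromosome 11, 33858576 to 33892289, minus strand), the bridging proteins of the TAL1 complex, gave 181 and 141 counts in all 36 libraries together. LMO1 had 0 to 21 counts per RNA sample and LMO2 0 to 33, with no count in 2 and 4 of the 18 samples, and in 10 and 17 of the 36 libraries. At these counts the guide effects were very loosely fixed: over the 3 days the 95% interval of the log2 fold change ran from -1.31 to 0.93 for LMO1 and from -1.21 to 2.04 for LMO2. GATA3 reached 25.6 to 45.8 CPM (554 to 1108 counts per sample), so its day and guide differences rest on fewer reads than those of TAL1 (11734 to 19740 counts).

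RUNX3 (ENSG00000020633, chromosome 1, 24899511 to 24965121, minus strand; GRCh38 and GENCODE v29 here and for the genes that follow) was the 1 factor of 10 called between the guides. This partner of CBFB, known for its part in cytotoxic T-cell development, was 2.07-fold higher with sgRELA. On day 5 the sgControl samples were at 16.1, 9.50 and 13.3 CPM and the sgRELA samples at 21.6, 33.2 and 26.6 CPM. On day 6 they were at 12.6, 12.4 and 7.79 CPM with sgControl and 21.8, 21.8 and 25.3 CPM with sgRELA. On day 7 they were at 7.78, 11.7 and 7.33 CPM with sgControl and 16.2, 23.0 and 12.6 CPM with sgRELA. Every sgRELA sample was above every sgControl sample of its day, which held for 52 of 27553 genes tested (0.189%), and the lowest sgRELA value, 12.6 CPM on day 7, was below the highest sgControl value of day 5.

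With the 3 days of each replicate number added, RUNX3 was at 10.9 ± 1.36 CPM with sgControl and 22.4 ± 3.18 CPM with sgRELA (SD, n = 3). The log2 fold change was 1.05 ± 0.13 (SE; edgeR's quasi-likelihood test with Benjamini-Hochberg adjustment, adjusted p = 6.89e-05), and the 1 call among 10 factors stood beside 105 of 28888 genes tested (0.363%). This call held in all 14 alternative fits, with log2 fold changes of 0.928 to 1.15 and adjusted p of at most 0.0474. On single days the log2 fold changes were 1.06 ± 0.24, 1.07 ± 0.25 and 0.95 ± 0.25 on days 5, 6 and 7 (SE), with edgeR adjusted p of 0.0904, 0.0613 and 0.301, so RUNX3 was not called on any single day. DESeq2 called it on day 5 (adjusted p = 0.0156) and on day 6 (0.00701). Without the 2 control libraries of few detected genes it was called on day 6 by edgeR (1.185 ± 0.26, adjusted p = 0.0344). CD79A and CD28, named above, were called higher with sgRELA as well, with PAX5 and MS4A1 near 0; their part in the RUNX3 result was not tested.

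**Figure D2:**
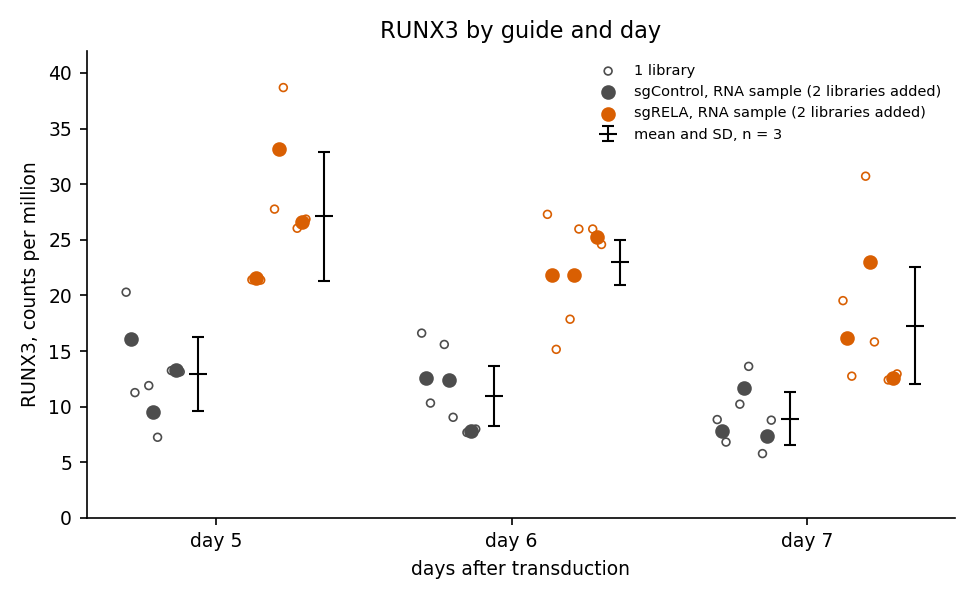
RUNX3 in CPM by day for sgControl (grey) and sgRELA (orange): filled points are RNA samples (2 libraries added), open points single libraries, and bars the mean and SD of 3 RNA samples. On each day the filled orange points lie above the filled grey points, and 1 library of sgRELA day 5 stands at 38.69 CPM.

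RUNX3 has few reads, 69 to 456 counts per library, and the libraries of 1 RNA sample differed by a median of 0.51 on the log2 scale, against 0.08 for RUNX1 and 0.09 for TAL1. The difference between the guides was about the size of the most unequal library pair of RUNX3 (0.96 on the log2 scale). RUNX1, the relative with by far the larger count, was at 1087 ± 23.5 CPM with sgControl and 1136 ± 22.4 CPM with sgRELA (SD, n = 3; log2 fold change 0.05 ± 0.03, edgeR adjusted p = 0.829).

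None of the other 9 factors was called for the guide. Over the 3 days their log2 fold changes were 0.05 ± 0.04 for TAL1, 0.00 ± 0.04 for MYB, 0.08 ± 0.04 for TCF7, 0.00 ± 0.04 for BCL11B, -0.10 ± 0.05 for NOTCH1 and -0.17 ± 0.09 for GATA3 (SE). The 95% intervals allow changes of -0.02 to 0.13 for TAL1, -0.08 to 0.08 for MYB, -0.09 to 0.09 for BCL11B and -0.34 to -0.01 for GATA3. The adjusted p of GATA3 was 0.758 by edgeR. These intervals are approximate: by the unadjusted p of the same test, only RUNX3 of the 10 factors was under 0.05 over the 3 days. GATA3 was thus not under 0.05 even before adjustment, although its interval leaves out 0. On single days edgeR called 0 of 10 on days 5, 6 and 7, beside 0.138%, 0.214% and 0.0907% of all genes tested; DESeq2 called 1, 1 and 0. At an unadjusted p under 0.05 there were 1, 4 and 2 factors: RUNX3 on each day, RUNX1 (0.14 ± 0.05), TCF7 (0.25 ± 0.08) and NOTCH1 (-0.27 ± 0.12) on day 6, and GATA3 (-0.36 ± 0.15) on day 7. Without the 2 control libraries of few detected genes the day 6 value of TCF7 became 0.31 ± 0.07 (edgeR adjusted p = 0.0312; without sgControl day 6 replicate 1 as a whole 0.35, 0.0409) and that of NOTCH1 -0.10 (0.964). The test of whether the guide effect changed with the day called 0 of 10 factors, all with an adjusted p of 1, beside 1 gene of 27553 (0.00363%); by unadjusted p no factor was under 0.05, TCF7 being lowest at 0.0506.

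**Figure D3:**
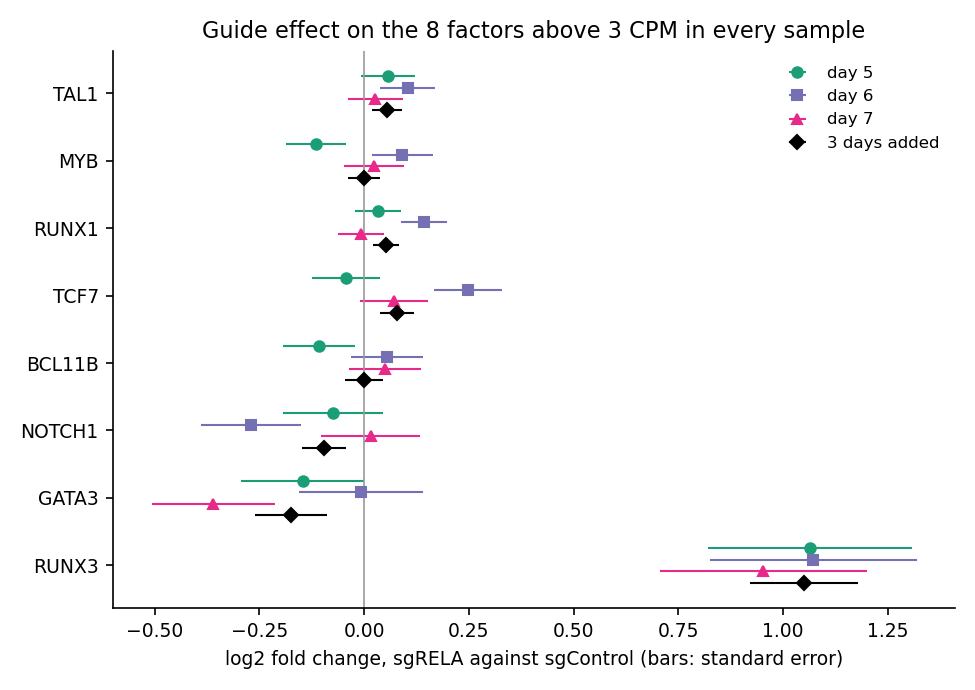
Log2 fold change of sgRELA against sgControl with its standard error for the 8 factors other than LMO1 and LMO2, on each day and with the 3 days added. RUNX3 lies near 1 in all 4 comparisons, and the other 7 factors lie between -0.36 and 0.25.

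Between days of harvest 6 of the 10 factors were called at least once in 6 comparisons, beside 28.2% of all genes tested. All 6 lie among the 8 factors with a mean of 10 CPM or more. Of the 10461 genes at that level 56.9% were called at least once, so such calls are common among well-counted genes. The share among the 8 factors was not tested against it. From day 5 to day 6, TAL1, RUNX1 and BCL11B rose and MYB fell, with either guide. From day 5 to day 7, TCF7, NOTCH1 and BCL11B rose and MYB fell, again with either guide. Beside these 4 of 10 factors, 8.87% (sgControl) and 6.91% (sgRELA) of all genes tested were called from day 5 to 6, and 13% and 12.4% from day 5 to 7. Between days 6 and 7, 5 of 10 were called with sgControl (14.6% of all genes) and 6 of 10 with sgRELA (12.2% of all genes). Of the well-counted genes, where 8 of the 10 factors lie, 20.3% and 16.3% were called from day 5 to 6, 28% and 27.3% from day 5 to 7, and 32% and 27.4% from day 6 to 7. Groups of 3 and 3 samples that do not overlap are common between these days: they were seen for 22.8%, 29% and 28% of all genes with sgControl (days 6 and 5, 7 and 5, 7 and 6) and for 25.7%, 29.6% and 29.3% with sgRELA. The 3 day comparisons of a guide share samples, and each day was 1 harvest time, so time and anything else particular to a harvest cannot be told apart. The day 6 samples also differed as a set in their TMM factors, at 1.021 to 1.078 against 0.9713 to 1.001 on days 5 and 7. The part of this in the day differences was not tested.

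TAL1 (ENSG00000162367, chromosome 1, 47216290 to 47232220, minus strand) and RUNX1, at the centre of the T-ALL circuit, were highest on day 6. TAL1 was at 514, 560 and 565 CPM on day 5, 786, 740 and 733 on day 6 and 613, 574 and 631 on day 7 with sgControl. With sgRELA it was at 588, 569 and 547 on day 5, 865, 767 and 795 on day 6 and 613, 630 and 610 CPM on day 7. The day 6 samples were above all samples of the other days for either guide. TAL1 rose from day 5 to 6 by 0.46 ± 0.07 with sgControl and 0.51 ± 0.07 with sgRELA on the log2 scale (edgeR adjusted p = 1.41e-05 and 3.43e-06) and fell by 0.31 and 0.39 from day 6 to 7 (7.54e-04 and 5.68e-05). Day 7 lay 0.15 and 0.12 above day 5 on the log2 scale, which was not called (edgeR adjusted p = 0.143 and 0.272). Every call of TAL1 held in all 14 alternative fits.

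RUNX1 (ENSG00000159216, chromosome 21, 34787801 to 36004667, minus strand), which recruits both activators and repressors of blood genes, was highest on day 6 too. It was at 983, 985 and 958 CPM on day 5, 1229, 1247 and 1157 on day 6 and 1087, 1076 and 1066 on day 7 with sgControl. With sgRELA it was at 972, 1014 and 1006 on day 5, 1404, 1301 and 1308 on day 6 and 1096, 1096 and 1023 CPM on day 7. The groups of days 5 and 6, and of days 6 and 7, did not overlap with either guide. It rose from day 5 to 6 by 0.31 ± 0.05 and 0.42 ± 0.05 on the log2 scale (edgeR adjusted p = 2.73e-04 and 4.26e-06). From day 6 to 7 it fell by 0.32 with sgRELA (8.31e-05), while its fall with sgControl, by 0.17 (0.0324), was lost in 9 of 14 alternative fits, among them those that left out any 1 replicate of day 7, replicate 1 of day 6 (-0.13) or replicate 2 of day 6 (-0.14). Day 7 lay 0.14 ± 0.05 above day 5 with sgControl, not called by edgeR (adjusted p = 0.0903) but called by DESeq2 (0.15, 0.032) and by edgeR without the 2 libraries of few detected genes (0.19, 0.0089).

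MYB (ENSG00000118513, chromosome 6, 135181315 to 135219173, plus strand), which binds an enhancer upstream of TAL1 in Jurkat cells and drives proliferation of blood progenitors, ran the other way, with its lowest values on day 6. With sgControl it was at 574, 503 and 557 CPM on day 5, 296, 347 and 351 on day 6 and 430, 402 and 416 on day 7. With sgRELA it was at 500, 505 and 505 on day 5, 345, 351 and 364 on day 6 and 424, 424 and 421 CPM on day 7. No 2 days overlapped within a guide. MYB fell from day 5 to 6 by 0.72 with sgControl and 0.51 with sgRELA on the log2 scale (SE 0.07 each; edgeR adjusted p = 7.21e-08 and 1.6e-05). It then rose to day 7 by 0.33 and 0.26 (0.00141 and 0.0139), and day 7 stayed below day 5 (log2 fold changes -0.39 and -0.25, edgeR adjusted p = 2.77e-04 and 0.0172). The 2 calls of day 7 with sgRELA were each lost in 7 of 14 alternative fits, among them those without replicate 1 or 2 of day 7. They were also lost without replicate 2 or 3 of day 5 and without replicate 3 of day 7 (against day 5), and without replicate 1 or 2 of day 6 (against day 6), at log2 values of -0.25 and of 0.24 to 0.26 in these fits. The first library of sgControl day 6 replicate 1 had 214.1 CPM of MYB; without it and the other library of few genes, the day 5 to 6 change with sgControl was -0.64 (edgeR adjusted p = 5.16e-09).

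**Figure D4:**
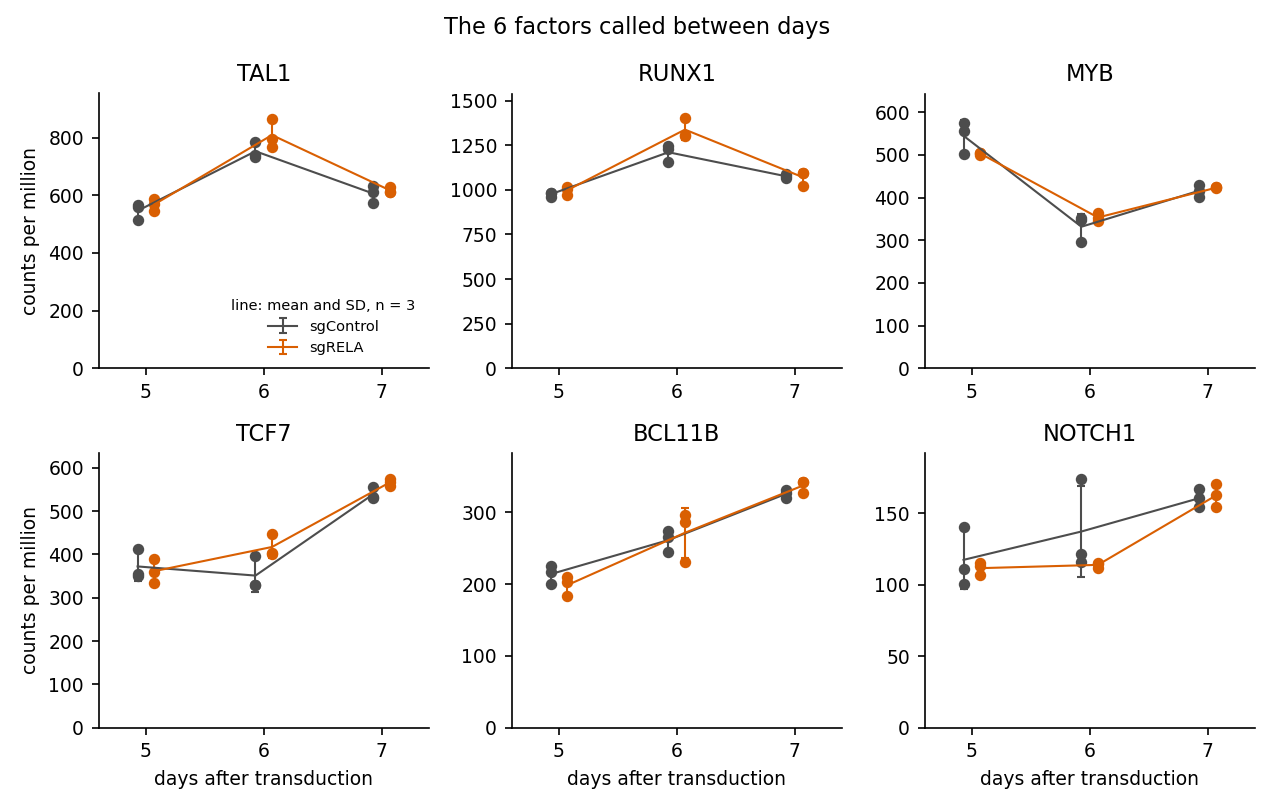
CPM of the 6 factors called between days, against days after transduction, for sgControl (grey) and sgRELA (orange); points are RNA samples and lines join group means with SD (n = 3). TAL1 and RUNX1 are highest on day 6, MYB is lowest on day 6, and TCF7, BCL11B and NOTCH1 are highest on day 7, apart from 1 sgControl day 6 sample of NOTCH1 at 174 CPM.

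TCF7 (ENSG00000081059, chromosome 5, 134114711 to 134151865, plus strand), a DNA-binding partner of beta-catenin and an early factor of T-cell commitment, rose late. With sgControl it was at 354, 412 and 351 CPM on day 5, 396, 329 and 329 on day 6 and 532, 531 and 555 on day 7. With sgRELA it was at 390, 359 and 335 on day 5, 447, 403 and 402 on day 6 and 568, 573 and 558 CPM on day 7. Day 7 lay above both earlier days for either guide, while days 5 and 6 overlapped with sgControl. TCF7 rose from day 5 to 7 by 0.53 ± 0.08 with sgControl and 0.65 ± 0.08 with sgRELA on the log2 scale (edgeR adjusted p = 1.9e-05 and 9.49e-07), and from day 6 to 7 by 0.62 and 0.44 (1.06e-06 and 2.04e-04). Between days 5 and 6 the changes of -0.08 and 0.21 were not called.

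BCL11B (ENSG00000127152, chromosome 14, 99169287 to 99271524, minus strand), a zinc-finger factor that closes off other blood fates, was called in every day comparison of both guides. With sgControl it was at 216, 225 and 200 CPM on day 5, 274, 266 and 244 on day 6 and 331, 326 and 320 on day 7. With sgRELA it was at 183, 210 and 203 on day 5, 296, 287 and 231 on day 6 and 342, 327 and 342 CPM on day 7. No 2 days overlapped within a guide. It rose from day 5 to 7 by 0.61 ± 0.09 and 0.76 ± 0.09 on the log2 scale (edgeR adjusted p = 6.69e-06 and 1.73e-07). The single steps were less firm. The rise of 0.29 from day 5 to 6 with sgControl (0.0296) was lost in 7 of 14 alternative fits, among them those without replicate 1 or 3 of day 5 or replicate 1 or 2 of day 6, at 0.24 to 0.29. The rise of 0.31 from day 6 to 7 with sgRELA (0.0127) was lost in 5, among them that without replicate 3 of day 6, which gave 0.21, and those without replicate 1 or 3 of day 7 (both 0.30). The rise of 0.32 from day 6 to 7 with sgControl (0.00938) was lost in 2, 1 of them without replicate 3 of day 6 (0.28).

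NOTCH1 (ENSG00000148400, chromosome 9, 136494433 to 136545786, minus strand), a receptor often mutated in T-ALL, was highest on day 7 on average. With sgControl it was at 101, 140 and 111 CPM on day 5, 174, 122 and 116 on day 6 and 167, 154 and 160 on day 7. With sgRELA it was at 115, 107 and 113 on day 5, 114, 115 and 112 on day 6 and 154, 170 and 163 CPM on day 7. The 1 high sample of sgControl on day 6 lay above the day 7 samples, and 1 of its libraries read 246.3 CPM where the other 5 of the group read 110.3 to 132.4. NOTCH1 rose from day 5 to 7 by 0.45 ± 0.12 with sgControl and 0.54 ± 0.12 with sgRELA on the log2 scale (edgeR adjusted p = 0.00945 and 0.002); without replicate 1 of day 5 the value with sgControl was 0.35 and was not called (0.0795). From day 6 to 7 it rose by 0.51 ± 0.12 with sgRELA (0.00309), and with sgControl the change of 0.23 was not called (0.241), but was without the 2 libraries of few detected genes (0.42, 3.63e-04) or without day 6 replicate 1 (0.46, 0.00216).

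GATA3, RUNX3, LMO1 and LMO2 were called by edgeR in none of the 6 day comparisons. GATA3 (ENSG00000107485, chromosome 10, 8045378 to 8075203, plus strand), which is needed at several steps of T-cell development, was at 38.1 ± 3.00, 33.2 ± 1.85 and 42.2 ± 4.32 CPM on days 5, 6 and 7 with sgControl and at 34.4 ± 1.53, 33.0 ± 4.17 and 32.9 ± 6.46 with sgRELA (SD, n = 3). Without the 2 libraries of few detected genes its day 6 to 7 change with sgControl was called (0.45 ± 0.15, edgeR adjusted p = 0.0338, against 0.35 ± 0.15 and 0.124 with them). For RUNX3 the day 7 to day 5 difference was -0.54 ± 0.25 with sgControl and -0.65 ± 0.24 with sgRELA on the log2 scale (0.171 and 0.0771). The latter was called by DESeq2 (-0.65, adjusted p = 0.0444) and by edgeR without replicate 2 of sgRELA day 7 (-0.91, 0.0268), with no filter on low counts (-0.65, 0.0274) and with the second libraries only (-1.09, 0.0173). The T-cell markers moved with the day too, as summed above. Of 14 tested, 7 rose and 1 fell from day 5 to 7 with sgControl, and 7 rose and 0 fell with sgRELA. Beside them, 13% and 12.4% of all genes tested were called, and 28% and 27.3% of genes with a mean of 10 CPM or more. The part of the markers in the rise of TCF7 and BCL11B was not tested.

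Other genes of the same pathways were read from lists written for these factors. Each count of genes called in at least 1 day comparison stands beside the same 28.2% of all genes and 56.9% of well-counted genes, and is no result about the list. Among 15 TAL1 partners and inhibitors 14 were tested, and 8 of them were called in at least 1 day comparison and 0 in a guide comparison. From day 5 to 7, 3 rose and 2 fell with sgControl and 4 rose and 1 fell with sgRELA. CBFA2T3, a corepressor found in TAL1 complexes, rose from 48.3 ± 5.50 CPM on day 5 to 94.0 ± 7.96 on day 7 with sgControl and from 36.8 ± 0.738 to 95.3 ± 1.75 with sgRELA (SD, n = 3; log2 fold changes 0.96 ± 0.12 and 1.37 ± 0.12, edgeR adjusted p = 7.89e-07 and 1.3e-09). The E protein TCF3 rose from day 5 to 7 by 0.31 and 0.44, while the E protein TCF12 fell by 0.30 and 0.23 on the log2 scale (edgeR adjusted p = 0.00381 and 0.0349 for TCF12). SSBP2, which stabilises LDB1, the scaffold of the complex, rose by 0.38 and 0.31. The calls of these 3 genes from day 5 to 7 leaned on single samples: TCF12 with sgRELA was lost without any 1 of the 6 samples compared (-0.24 to -0.20), TCF3 with sgControl without any of 5 of them, all but replicate 2 of day 5 (0.25 to 0.34), and SSBP2 with sgRELA without replicate 1 or 3 of day 5 or of day 7 (0.29 to 0.31). The median log2 fold change of the 14 from day 5 to 7 was 0.25 with sgControl and -0.04 with sgRELA, beside -0.01 and -0.01 for all genes.

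Of 7 relatives and partners of the RUNX and MYB proteins 6 were tested on single days, and all 6 were called in some day comparison and 0 for the guide. MYBL2, a MYB relative that acts at mitotic genes, fell from 140.6 ± 16.1 CPM on day 5 to 83.4 ± 3.83 on day 6 and rose to 255.9 ± 12.01 on day 7 with sgControl, and went from 110.2 ± 1.78 to 72.6 ± 8.05 and 243.5 ± 2.56 with sgRELA (SD, n = 3). Its log2 rise from day 6 to 7 was 1.62 ± 0.09 and 1.75 ± 0.10 (edgeR adjusted p = 1.81e-13 and 5.87e-14). MYBL1 rose over the same step by 1.39 ± 0.18 and 0.74 ± 0.18. CBFB, the partner that RUNX proteins need to bind DNA firmly, rose from day 5 to 7 by 0.41 and 0.46, calls that were lost without replicate 2 of sgControl day 5 and without replicate 2 of sgRELA day 7 (0.35 each), and the coactivator CREBBP fell by 0.60 and 0.57. The median of the 6 from day 5 to 7 was 0.07 and 0.04, beside -0.01 for all genes with either guide.

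Of 7 genes described as targets of the TAL1 circuit, 4 were called in a day comparison and 0 for the guide. CDK6, a cyclin-dependent kinase of G1 phase, rose from 2278 ± 58.1 CPM on day 5 to 3557 ± 134 on day 7 with sgControl and from 2130 ± 81.2 to 3313 ± 44.4 with sgRELA (0.64 ± 0.05 on the log2 scale for each; edgeR adjusted p = 1.86e-10 and 2.14e-10). ALDH1A2, which makes retinoic acid, fell from day 5 to 6 by 0.81 and 0.61 (9.56e-08 and 9.77e-06), the step at which TAL1 rose. ETV6, a repressor of the ETS family, rose from day 5 to 7 by 0.42 and 0.44, which was lost with sgControl without replicate 1 or 3 of day 5 or replicate 1 of day 7 (0.36 to 0.38) and with sgRELA without replicate 1 of day 7 (0.39). The list's median from day 5 to 7 was 0.19 with either guide, beside -0.01 for all genes.

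In the NOTCH pathway 17 of 19 listed genes were tested, 10 were called in a day comparison and 0 for the guide, and from day 5 to 7 3 rose and 3 fell with either guide. DTX1, a direct target of NOTCH signalling, rose by 0.55 ± 0.14 and 0.67 ± 0.14 from day 5 to 7 on the log2 scale (edgeR adjusted p = 0.00712 and 0.00115). FBXW7, which marks the cleaved NOTCH inner part for degradation, fell by 0.41 and 0.57. With sgControl the call of DTX1 was lost without replicate 1 or 3 of day 5 (0.46 and 0.48) and that of FBXW7 without replicate 1 of day 5 or replicate 2 of day 7 (-0.30 and -0.37). RBPJ, the DNA-binding partner of NOTCH, fell from day 5 to 6 by 0.40 and 0.45 (0.00459 and 0.00149). The median of the 17 from day 5 to 7 was -0.00 and 0.05, beside -0.01 for all genes.

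Of 8 partners and relatives of TCF7, 3 were called between days and 0 for the guide. LEF1, the closest relative of TCF7, rose from day 5 to 7 by 0.21 and 0.23, lost with sgControl without replicate 1 of day 5 or replicate 1 or 2 of day 7 (0.18 to 0.21) and with sgRELA without replicate 1 of either day (0.20 and 0.21). Beta-catenin (CTNNB1) fell by 0.40 and 0.39 on the log2 scale (edgeR adjusted p = 3.16e-04 and 5.07e-04). TCF7L2 fell by 0.52 with sgControl (0.0309), a call that was lost without the 2 libraries of few detected genes (-0.43) and without any 1 of 4 samples, replicates 2 and 3 of day 5 and 1 and 2 of day 7 (-0.52 to -0.42). Of 13 other T-lineage factors 8 were called between days. SATB1, a chromatin organiser of T cells, rose from day 5 to 7 by 0.36 and 0.37, PHF6 rose by 0.33 with sgControl (lost without replicate 1 or 2 of day 5 or replicate 3 of day 7, 0.30 to 0.32), and ZEB1, a repressor of T-cell genes, fell by 0.49 with either guide. IKZF2, of the Ikaros family, rose by 0.39 and 0.36 and was also the 1 gene of these pathway lists called for the guide, on day 6 (0.32 ± 0.07, edgeR adjusted p = 0.0276); this call was lost without replicate 1 of sgControl day 6 (0.23) and without any 1 of the 3 sgRELA day 6 samples. Of 12 factors that mark other T-ALL subgroups, such as TLX1 and the HOXA genes, 4 passed the filter of the single-day fit and 6 that of the fit over the 3 days, and 0 were called in any comparison by edgeR.

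TAL1, TCF7 and MYB each share exonic bases with a gene on the opposite strand in GENCODE v29, and the strand setting of the counting is not given in the sources used here, so reads in these stretches cannot be told apart. TAL1 shares 845 bases with the transcript ENSG00000226252, which was at 25.1 ± 6.87 CPM on day 5 and 38.7 ± 4.33 on day 6 with sgControl (SD, n = 3) and, like TAL1, was called higher on day 6 with both guides (0.62 ± 0.17 and 0.69 ± 0.17, edgeR adjusted p = 0.0205 and 0.0122). TCF7 shares 210 bases with SKP1, a subunit of ubiquitin ligases, which rose from day 5 to 7 by 0.44 and 0.43 (3.16e-04 and 4.28e-04). MYB shares 103 bases with MYB-AS1, which was at 6.04 to 10.1 CPM on average and was not called.

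The genes whose pattern over the 18 RNA samples was most like that of TAL1, by Pearson's r of log2(CPM + 1) among 10460 tested genes with a mean of 10 CPM or more, were OSBPL5 (r = 0.97), RUNX1 (0.951) and S1PR3 (0.947). For MYB, called in all 6 day comparisons, they were CHORDC1 (0.948), PALM2AKAP2 (0.946) and ATP5F1C (0.944). The samples share 3 harvest days, and these values describe the 18 samples only.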

How the data were processed

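Gene expression was measured by RamDA-seq in 36 libraries, 2 from each of 18 RNA samples (6 groups of guide and day, 3 biological replicates each). Transductions were made in triplicate, per the labels' protocols, which do not say whether a replicate number marks 1 transduction over the 3 days. The deposited file holds raw read counts per gene for 74628 genes, made by the authors from reads trimmed with cutadapt 1.18 and aligned to GRCh38 with STAR 2.7.9a, per the submitters' processing notes; the counting tool, annotation and strand setting are not given in the sources used here. No molecular identifiers are mentioned, so duplicate reads may be counted.

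The 2 libraries made from each RNA were summed (18769530 to 29503934 counts per RNA sample), and genes were kept by edgeR's filterByExpr (minimum count 10). Differences were tested with edgeR 4.0.16 in R 4.3.3 (TMM, quasi-likelihood F test, Benjamini-Hochberg adjustment over all genes tested, call at an adjusted p under 0.05) in 1 fit of 6 group means. The guide effect over days used the sums of the 3 days per guide and replicate number, 3 against 3. Standard errors are the log2 fold change divided by the root of F, and 95% intervals are approximate. The p-values measure the spread between these replicates. DESeq2 1.42.0 and other alternatives were run, and the fit was tested on simulated data. Over all genes tested, same-numbered samples did not vary together (correlations of deviations -0.066 to 0.039). Replicate numbers were therefore not used to pair samples in the fit of 6 group means. Such correlations cannot show that a number does not mark 1 transduction. The guide effect over days thus used 1 sum per guide and number as the cautious unit.

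The 10 factors and all gene lists were chosen with earlier results of these data known. Named genes are the 10 factors, RELA and, of each pathway list, up to 4 genes called in the most comparisons, ties broken by the smallest p. Some of these genes are not reported here. Genes on the opposite strand of a factor were added for their shared bases. Lengths and positions are from GENCODE v29, and start regions from RefSeq (GRCh38.p14). Figures were drawn with matplotlib.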

Additional observations from a re-analysis of the deposited data

Results flagged for a closer look

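The 6 libraries of each group were searched for 1 that stands apart from the other 5, for each factor (60 groups of libraries; chance alone gives about 1 in 20, and the 6 libraries come from 3 RNA samples). Such a library was found 7 times. The first library of sgControl day 6 replicate 1, which had the fewest counts of all 36 (7586205), gave 4 of them. It held 214.1 CPM of MYB where the other 5 held 331.5 to 369.0, 474.0 CPM of TCF7 (others 323.9 to 358.4), 246.3 CPM of NOTCH1 (others 110.3 to 132.4) and 341.2 CPM of BCL11B (others 224.1 to 267.9). RUNX3 stood at 38.69 CPM in the second library of sgRELA day 5 replicate 2 (others 21.38 to 27.76). TCF7 stood at 481.7 CPM in the first library of sgRELA day 6 replicate 1 (others 392.9 to 412.4). LMO2 stood at 2.661 CPM, 29 counts, in the second library of sgRELA day 6 replicate 2 (others 0 to 0.7929). The cause of these values was not tested.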

How the results depend on the processing

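The 28 calls of the factors were refitted under 14 alternatives each: 343 of 392 refits kept the call, 49 lost it and 0 changed sign. For the genes picked from the pathway and marker lists, 1373 refits kept a call and 223 lost it. The losses named above for list genes are only from fits without 1 sample or without the 2 libraries of few detected genes. A list gene given without a named loss can thus have lost its call in another fit. The guide comparisons of single days, with 0 factors called by edgeR, gained calls under some settings. On day 5, 1 factor (RUNX3) was called by DESeq2, with no filter on low counts, and with the second libraries only (adjusted p = 0.0479). On day 6, 1 was called by DESeq2, with no filter and with the replicate number as a block (RUNX3 in each; 0.0468 with the block), 2 without the 2 libraries of few detected genes (RUNX3 and TCF7), and 0 to 1 when 1 replicate was left out (TCF7, without sgControl day 6 replicate 1). On day 7, 1 was called with no filter (RUNX3, 0.0087). With the first libraries only, day calls fell to 2, 1 and 3 of 10 with sgControl (days 6 and 5, 7 and 5, 7 and 6). With sgRELA they fell to 1, 2 and 2. Of the 28 calls, 16 were lost with the first libraries only and 5 with the second libraries only. Each of these fits holds fewer reads than the main fit, and the cause of the losses was not tested. With no filter on low counts, which added the RUNX3 calls above, 4 of the 28 calls were lost. The replicate block changed no other call of the factors. A second block, with guide and replicate number together as the unit across days, lost 1 call, that of RUNX1 between days 6 and 7 with sgControl. Depth limits LMO1 and LMO2, with 181 and 141 counts in all. RUNX3 was called on single days only under some settings, as given above, and whether depth limits it there was not tested. Each guide is 1 sequence, each day 1 harvest.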
